A study of Mus musculus with 32 samples.

Results

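The comparison described here sets 8 striatal libraries from YAC128 mice given artificial cerebrospinal fluid (aCSF) against 8 striatal libraries from wild-type (WT) littermates given the same fluid. The libraries were taken by genotype and treatment in the sample titles, and they are 16 of the 32 libraries in the series. YAC128 mice, here on a B6 background, are transgenic for a yeast artificial chromosome that holds the human huntingtin gene with a lengthened CAG repeat. The WT littermates lack it. Both groups had a cannula in the lateral ventricle, through which 10 µL of aCSF was given at about 6 months of age and again 2 and 4 weeks later. Both had an MRI scan at 12 months and were then killed with CO2. The other 16 libraries came from YAC128 mice that received AON12.1 or a scrambled oligonucleotide by the same route. They entered the fit and shared its estimate of the spread. Each library carries its own animal number, so the spread between libraries includes that between animals.

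The striatum is made up mainly of projection neurons in a pair of output pathways. Those of the indirect pathway carry the adenosine and dopamine receptors of the Adora2a and Drd2 genes and make enkephalin, and those of the direct pathway carry that of Drd1 and make substance P and dynorphin. Huntington disease affects these neurons early, and loss of enkephalin and receptor transcripts is among its known marks in striatum. In whole striatum, fewer cells of a type and less RNA per cell cannot be told apart.

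Counts in annotated features ran from 705758 to 1248991 per library in YAC128 aCSF mice and from 659490 to 1153050 in WT aCSF mice. After a filter on low counts, 10679 of 55415 features were tested. Some libraries stood apart. The share of a file's counts that fell in no feature averaged 25.7% ± 4.92 in YAC128 aCSF and 19.5% ± 4.40 in WT aCSF mice (SD, n = 8 each). The difference of 6.12 points had a two-sided p of 0.0292 in an exact permutation test (0.0522 after Benjamini-Hochberg adjustment over 6 library measures). The libraries fell into separate bands. YAC128 aCSF replicates 7 and 8, at 19.5% and 17.0%, lay with most WT libraries, whereas the other YAC128 aCSF libraries lay at 24.998% or more. WT aCSF replicate 1, at 30.2%, lay with the YAC128 libraries, and no other WT library exceeded 19.2%. The first principal component of the 16 libraries (35.5% of the variance of the 1000 most variable genes) separated the same bands. YAC128 aCSF replicate 4 held 3191 CPM (counts scaled to a common library size) of Ttr, the transthyretin gene of the choroid plexus, and every other YAC128 or WT aCSF library held at most 151 CPM. Results are therefore also given from a model that includes the no-feature share, and values of single libraries are named where they matter. Among the 16 aCSF libraries the share is close to a split between bands, and few cross between the genotypes, namely YAC128 replicates 7 and 8 and WT replicate 1. In the fit over all 32 libraries the slope also rests on the other YAC128 groups. Their shares ran from 17.5% to 33.7% with AON12.1 and from 19.9% to 26.8% with the scrambled oligonucleotide.

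The feature NM_001388492, which carries no mouse Ensembl identifier, separated the genotypes completely. In YAC128 aCSF libraries its lowest, median and highest levels were 119, 140 and 188 CPM, against 0, 2.85 and 7.06 CPM in WT aCSF libraries. Its log2 fold change was 5.26 ± 0.23 (SE, adjusted p = 2.58e-20 by the quasi-likelihood test of edgeR, adjusted by Benjamini-Hochberg over the whole table, as is every adjusted p of a gene here). Mouse Htt on chromosome 5, the endogenous huntingtin gene, stood at 84.2, 102 and 130 CPM in YAC128 aCSF and at 76.2, 85.2 and 130 CPM in WT aCSF mice, and did not pass the test (adjusted p = 0.422). Any transgene reads that mapped to the mouse gene are included in this level and could not be subtracted.

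Of the 10679 tested genes, 8 were called at an adjusted p under 0.05 (0.0749%), 4 higher (0.0375%) and 4 lower (0.0375%) in YAC128 aCSF mice. Enkephalin and adenosine receptor transcripts of the indirect pathway, the nuclear cytokine Il33 and the kinase Sgk1 were lower. The oligodendrocyte gene Enpp6, the chromosome 3 genes Spata5 and Anxa5, and NM_001388492 were higher. At an unadjusted p under 0.05 there were 1340 genes (12.5%), 725 higher (6.79%) and 615 lower (5.76%).

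Penk, on chromosome 4, encodes proenkephalin, the precursor of the enkephalins of indirect pathway neurons. It measured 1510, 2574 and 3130 CPM (lowest, median, highest) in YAC128 aCSF mice and 2482, 4272 and 5694 CPM in WT aCSF mice. The groups overlapped through WT replicates 7 and 1, at 2482 and 3024 CPM, while the other WT libraries lay above every YAC128 library. Penk fell by 0.76 ± 0.16 on the log2 scale (0.592 of the WT level, 95% interval 0.472 to 0.744, adjusted p = 0.0495). Adora2a, an adenosine receptor gene on chromosome 10, measured 29.3, 55.0 and 62.0 CPM in YAC128 aCSF and 63.0, 90.7 and 118 CPM in WT aCSF mice. Every YAC128 library lay below every WT library. Adora2a fell by 0.83 ± 0.18 log2 units (adjusted p = 0.0495).

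With the no-feature share in the model the log2 fold changes were -0.66 ± 0.17 for Penk and -0.75 ± 0.19 for Adora2a, and neither stayed past the threshold (adjusted p = 0.296 and 0.270). The slope of either gene on the share did not pass the test (adjusted p = 0.428 and 0.550). Among the libraries that crossed the bands, YAC128 replicates 7 and 8 held 2810 and 2988 CPM of Penk and 55.6 and 54.4 CPM of Adora2a, within the range of the other YAC128 libraries. WT replicate 1, with the highest share of its group, held 67.1 CPM of Adora2a, above all YAC128 libraries. Its 3024 CPM of Penk lay within the YAC128 range, which reached 3130 CPM. In libraries with a share of up to 25%, the log2 fold changes were -0.77 for Penk and -0.90 for Adora2a, with neither passing the test (adjusted p = 0.872 for both). This set held fewer animals, with only replicates 5, 7 and 8 of YAC128 aCSF and no WT replicate 1. Replicate 5, at 24.998%, belongs to the upper band, so the set does not lie within 1 band. It held 1873 CPM of Penk and 33.7 CPM of Adora2a, less than replicates 7 and 8.

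**Figure D1:**
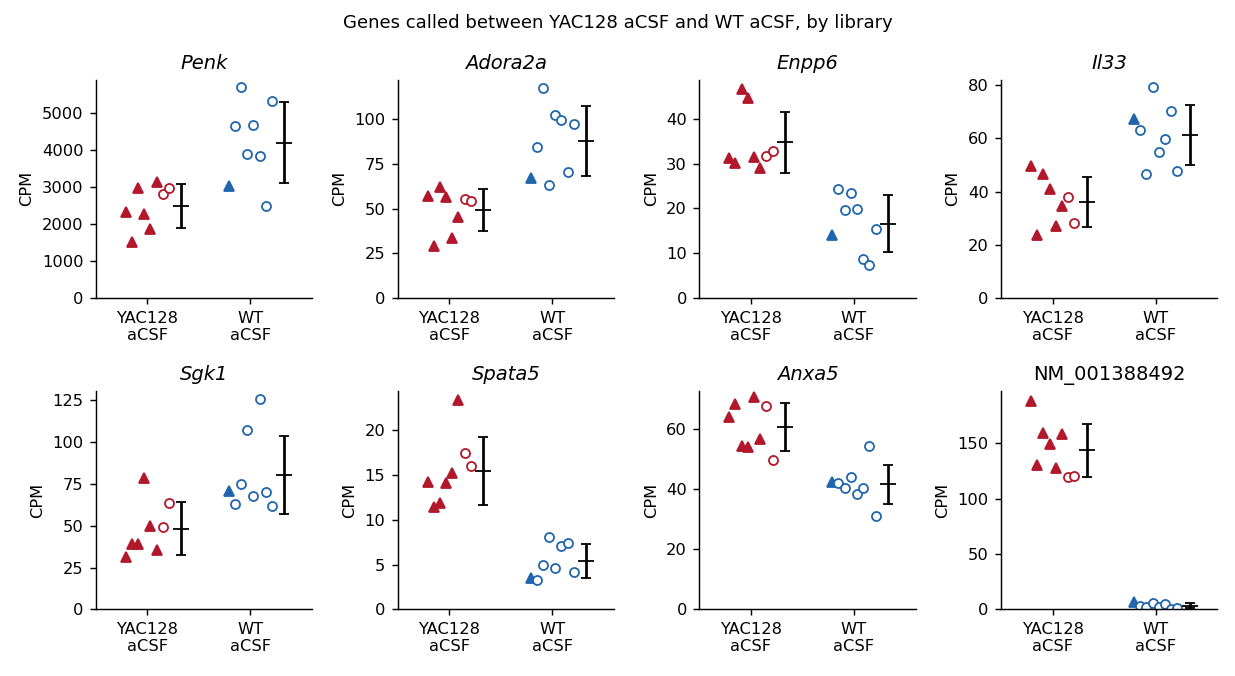
TMM-normalized level (CPM, from 0) of the 8 called genes in each library of YAC128 aCSF (red, left) and WT aCSF mice (blue, right), with the group mean ± SD in black (n = 8 each). Filled triangles are libraries with a no-feature share of 24.998% or more and open circles those of 19.5% or less. The triangle among the WT points and the open circles among the YAC128 points are the libraries that cross the bands, and they lie with their own genotype for Adora2a, Enpp6, Spata5 and NM_001388492.

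Enpp6, on chromosome 8, encodes a choline-specific phosphodiesterase that marks newly formed oligodendrocytes. It measured 28.9, 31.6 and 46.7 CPM in YAC128 aCSF mice and 7.41, 17.6 and 24.3 CPM in WT aCSF mice, with no overlap. It rose by 1.08 ± 0.19 on the log2 scale (2.11-fold, 95% interval 1.61 to 2.76, adjusted p = 0.00632) and by 1.05 ± 0.21 with the no-feature share in the model (adjusted p = 0.0389). It stayed called when each of the 16 libraries was left out in turn. It was not called with the share in the 16 aCSF libraries alone (0.99, adjusted p = 0.242), with the share but without WT replicate 1 (1.0002, adjusted p = 0.210), or in the smaller set with a share of up to 25% (0.93, adjusted p = 0.692). The other genes of newly formed oligodendrocytes did not follow it: of 10 tested members of that list, Enpp6 included, 7 lay above 0 and 3 below, with a median log2 fold change of 0.04, and only Enpp6 had an unadjusted p under 0.05. Over all tested genes the median was -0.0036 (5412 of 10679 below 0).

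Il33, on chromosome 19, encodes a nuclear cytokine made in mouse brain by oligodendrocytes and astrocytes. It measured 23.6, 36.3 and 49.7 CPM in YAC128 aCSF and 46.6, 61.5 and 79.2 CPM in WT aCSF mice, and the groups overlapped at their edges. It fell by 0.78 ± 0.16 on the log2 scale (adjusted p = 0.0358). The value was -0.77 ± 0.17 with the no-feature share in the model (adjusted p = 0.105). Sgk1, on chromosome 10, encodes a kinase induced by glucocorticoids and expressed in oligodendrocytes among other cells. It measured 31.3, 44.2 and 78.7 CPM in YAC128 aCSF and 62.0, 70.5 and 126 CPM in WT aCSF mice. YAC128 replicates 4 and 8, at 78.7 and 63.8 CPM, reached into the WT range, and the rest lay below it. Sgk1 fell by 0.75 ± 0.16 (adjusted p = 0.0398), and with the share in the model the log2 fold change was -0.64 ± 0.16 (adjusted p = 0.270).

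Spata5 and Anxa5 both lie on chromosome 3, with 4 tested genes between them in the GRCm38 annotation. Spata5, which encodes an AAA-type ATPase, measured 11.4, 14.7 and 23.4 CPM in YAC128 aCSF and 3.24, 4.78 and 8.10 CPM in WT aCSF mice, with no overlap. It rose by 1.43 ± 0.25 on the log2 scale (2.702-fold, 95% interval 1.90 to 3.84, adjusted p = 0.00632) and by 1.55 ± 0.27 with the share in the model (adjusted p = 0.00515). Like Enpp6, it stayed called without any single library of the 16. It also stayed called with the share in the 16 aCSF libraries alone (1.59, adjusted p = 0.0131) and with the share but without WT replicate 1 (1.495, adjusted p = 0.0387), and was not called in the set with a share of up to 25% (1.45, adjusted p = 0.0907). Anxa5, which encodes a calcium-dependent phospholipid-binding protein, measured 49.7, 60.3 and 70.6 CPM in YAC128 aCSF and 31.0, 41.3 and 54.3 CPM in WT aCSF mice. WT replicate 7 alone, at 54.3 CPM, reached into the YAC128 range. Anxa5 rose by 0.54 ± 0.11 (adjusted p = 0.0358), with the same 0.54 ± 0.12 when the share was in the model (adjusted p = 0.105). The 4 genes between them had log2 fold changes from -0.09 to 0.03, with a lowest unadjusted p of 0.560. Over chromosome 3 as a whole, 8.25% of 521 tested genes were higher at an unadjusted p under 0.05, within the range of 3.26% (chromosome 18) to 10.3% (chromosome 12) across chromosomes.

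The AON12.1 and scrambled groups share the transgene and were compared with the same WT libraries, so their values are not independent of those above. Enpp6 stood 1.15 above WT with AON12.1 and 1.35 with the scrambled oligonucleotide (log2 fold changes, adjusted p = 0.000886 and 3.97e-05). Spata5 stood 1.57 and 1.38 above WT (adjusted p = 0.000539 and 0.00477), and Anxa5 0.44 and 0.60 (adjusted p = 0.0514 and 0.00475). For the 4 lower genes no difference from WT passed the test in either group. Penk stood at -0.22 with AON12.1 and -0.62 with the scrambled oligonucleotide (adjusted p = 0.539 and 0.113), Adora2a at -0.23 and -0.50, Il33 at -0.20 and -0.58, and Sgk1 at -0.36 and -0.57. Enpp6, Spata5 and NM_001388492 are thus called against WT in each YAC128 group, and the differences between YAC128 groups were not tested here.

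The genes next in order of p did not pass the test and are given as values. Among the higher ones, Dennd4a, an activator of Rab GTPases, stood 0.72 ± 0.16 log2 units above WT and Zfp445, a zinc-finger protein of imprinted regions, 0.64 ± 0.15 above it (adjusted p = 0.0671 for both). Zfp445 stood at 81.2 CPM in WT replicate 1 and at no more than 63.0 CPM in the other WT libraries, and with the share in the model its value was 0.33 ± 0.10. The splicing regulator Tra2a (0.93), the RNA endonuclease Swt1 (0.89), the zinc-finger gene Zfp692 (0.98), the endoplasmic reticulum protein gene Tmcc1 (0.45) and Smyd4 (0.60) had an adjusted p from 0.09998 to 0.137. With the share in the model Tra2a was at 0.42 and Swt1 at 0.48, while Smyd4 was at 0.53. Ttr, with 4.01 ± 0.92, rested on replicate 4.

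Among the lower ones were genes of neurons and astrocytes. Slc1a2, the main glutamate transporter of astrocytes, measured 1148, 1272 and 1518 CPM in YAC128 aCSF and 1361, 1689 and 1924 CPM in WT aCSF mice (log2 difference -0.37 ± 0.08, adjusted p = 0.0671). The groups overlapped in the lower part of the WT range. Aldoc, the astrocytic aldolase, stood at -0.32 ± 0.08 log2 units (adjusted p = 0.09998), and the serine protease gene Htra1 -0.38 ± 0.09 (adjusted p = 0.09998). Neuronal Nefm, the medium neurofilament chain, had -0.55 ± 0.13 (adjusted p = 0.0690). Wfs1, which encodes wolframin of the endoplasmic reticulum, had -0.58 ± 0.14 (adjusted p = 0.09998) and lay at 135, 211 and 244 CPM in YAC128 aCSF and 250, 302 and 352 CPM in WT aCSF mice, without overlap. Ap1s1, a clathrin adaptor subunit, had -0.42 ± 0.09, and Nsmce4a, a subunit of the Smc5/6 complex, -0.48 ± 0.11.

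Scrt1, which encodes a neuronal zinc-finger repressor, stood at -0.48 ± 0.11 log2 units (adjusted p = 0.0671) and fell by 0.57 ± 0.11 with the share in the model (adjusted p = 0.0389). It measured 49.3, 57.7 and 79.6 CPM in YAC128 aCSF and 69.9, 82.2 and 114 CPM in WT aCSF mice, the 114 CPM being WT replicate 1. With the share but without that library the value was -0.45 (adjusted p = 0.394), and with the share in the 16 aCSF libraries alone it was -0.58 (adjusted p = 0.212), so neither was a call. Scrt1 was 1 of 4 genes called with the share over all 32 libraries (0.0375%), beside NM_001388492, Spata5 and Enpp6, of which 3 were higher (0.0281%) and 1 lower (0.00936%). Next in p there, and not called, were among others Ifitm3 (0.73 ± 0.16, adjusted p = 0.0949), the matrix protein gene Smoc1 (0.72 ± 0.17), Zbtb33 (1.13 ± 0.28), Wfs1 (-0.65 ± 0.15), the myelin proteolipid gene Mal (-0.62 ± 0.15) and Gripap1 (-0.57 ± 0.14).

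In 4 tested genes all 8 YAC128 aCSF libraries lay above all 8 WT aCSF libraries (0.0375%): NM_001388492, Spata5, Enpp6 and the tubulin acetyltransferase gene Atat1. In 5 they lay below (0.0468%): Adora2a, Wfs1, Nsmce4a, the light neurofilament chain Nefl and the survival factor gene Bcl2l1. Atat1, Nefl and Bcl2l1 were named after their values were seen. Nefl measured 210, 226 and 253 CPM in YAC128 aCSF and 253, 282 and 325 CPM in WT aCSF mice, a difference of -0.31 ± 0.08 log2 units (adjusted p = 0.137). Such a split needs no large difference: Bcl2l1 stood at -0.24 ± 0.08 log2 units and Atat1 at 0.36 ± 0.11.

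The number of genes that differed was smaller with the no-feature share in the model, and many genes had a slope on it. In a fit over all groups, 1013 genes had a positive slope on the share (9.49%) and 542 a negative one (5.08%) at an adjusted p under 0.05. The SD of the log2 fold changes was 0.274, and 0.231 with the share in the model. Genes more than 1 log2 unit higher in YAC128 aCSF mice numbered 88, and 16 with the share. Those more than 1 unit lower numbered 6, and 9 with the share. Genes at an unadjusted p under 0.05 numbered 741 with the share (6.94%), 355 higher (3.32%) and 386 lower (3.61%). Of the 725 higher genes, 211 (29.1%) were again higher at that threshold with the share, and of the 615 lower genes, 237 (38.5%) were again lower.

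**Figure D2:**
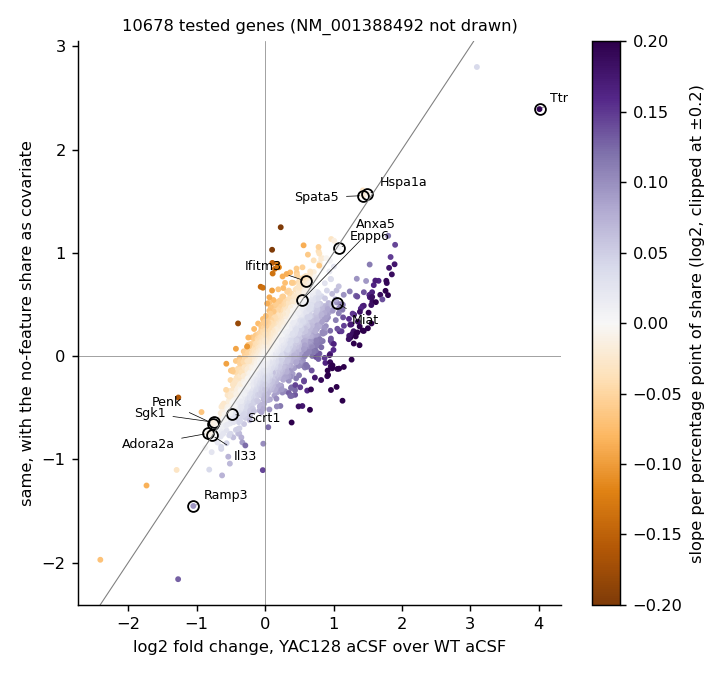
Log2 fold change of YAC128 aCSF over WT aCSF for each tested gene without a covariate (horizontal axis) and with the no-feature share as covariate (vertical axis), coloured by the gene's slope on the share in log2 units per percentage point. The diagonal marks equal values, and circles mark named genes. Purple points with positive slopes lie below the diagonal on the right, whereas Spata5, Enpp6, Anxa5, Adora2a and Il33 lie close to it.

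The annotation class TEC stood furthest from the rest of the table in its median among the classes with at least 26 tested genes. The 83 tested features of the class TEC (an annotation class for transcribed regions whose status is still to be tested) had a median log2 fold change of 1.15, and 45 were higher (54.2%) and 0 lower at an unadjusted p under 0.05. With the share in the model the median was 0.24, with 7 higher and 1 lower. Their summed level was 538, 1949 and 2302 CPM (lowest, median, highest) in YAC128 aCSF and 528, 687 and 2367 CPM in WT aCSF mice. YAC128 replicates 7 and 8, at 782 and 538 CPM, lay in the range of most WT libraries, and WT replicate 1 was the highest of all 16. Long intergenic RNAs had a median of 0.18 (84 genes, 15 higher and 1 lower), and 0.05 with the share. Processed transcripts had a median of 0.09 (58 genes, 13 higher and 0 lower), and 0.02 with the share. Processed pseudogenes lay the other way, with a median of -0.16 (218 genes, 8 higher and 37 lower) and -0.14 with the share. Pseudogene counts are uncertain, since near-identical parent genes can take or give reads.

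**Figure D3:**
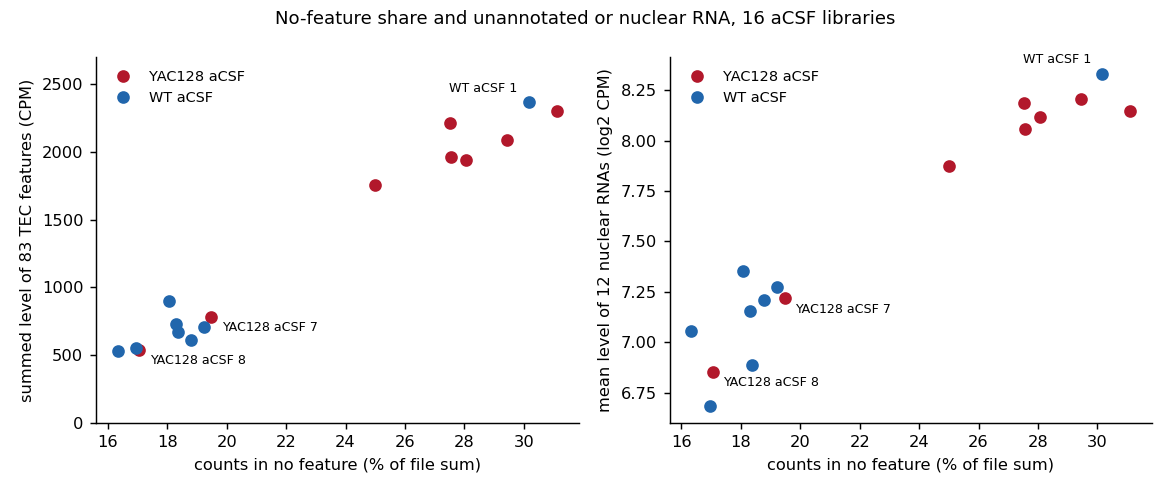
Summed level of the tested TEC features (CPM, from 0, left) and mean level of 12 nuclear long RNAs (log2 CPM, right) against the share of counts in no feature (%), 1 point per library, for YAC128 aCSF (red) and WT aCSF mice (blue). WT replicate 1 lies among the YAC128 points, and YAC128 replicates 7 and 8 lie among the WT points.

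The list of nuclear long RNAs lay mostly above 0 without the share in the model, and near 0 with it. Of 12 tested members, 10 lay above 0 and 2 below, the median log2 fold change was 0.67, and 7 had an unadjusted p under 0.05, all higher (58.3%, against 6.79% of all genes). With the share in the model the median was 0.04, with 7 above 0 and 5 below, and 1 was higher and 2 lower at that threshold. Miat, a nuclear long RNA of neurons, measured 44.1, 83.6 and 116 CPM in YAC128 aCSF and 15.0, 36.9 and 89.5 CPM in WT aCSF mice (log2 difference 1.05 ± 0.31, adjusted p = 0.172). Its highest WT value was that of replicate 1. Rian, from the imprinted Dlk1 to Meg3 region, was at 1.09 ± 0.37, and at 0.24 ± 0.17 with the share.

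Direction also followed transcript length and abundance. Among genes in the longest quintile of annotated exon length, 292 were higher and 45 lower at an unadjusted p under 0.05, and in the shortest quintile 73 were higher and 213 lower. With the share in the model the counts were 73 higher and 78 lower in the longest quintile, and 64 higher and 98 lower in the shortest. By abundance, the top quintile (above 107 CPM) held 42 higher and 330 lower genes and the bottom quintile 218 higher and 35 lower genes. With the share these were 28 and 138, and 83 and 45. The excess of lower genes among abundant transcripts was thus smaller in that model but still present as a count. What moved it was not tested.

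**Figure D4:**
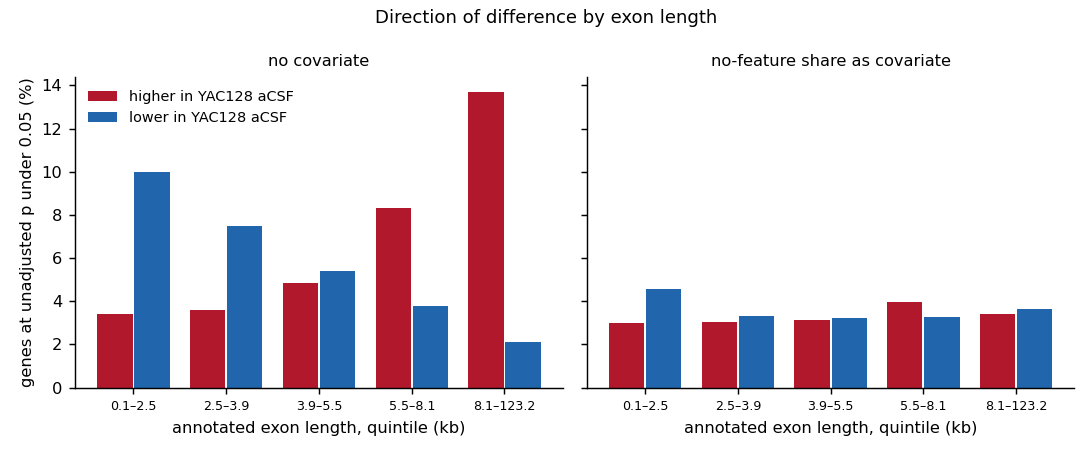
Percentage of tested genes at an unadjusted p under 0.05 that were higher (red) or lower (blue) in YAC128 aCSF than in WT aCSF mice, by quintile of annotated exon length (kb, shortest to longest), without a covariate (left) and with the no-feature share (right). Without the covariate the higher share climbs to 13.7% in the longest quintile, and with it the bars are close to level.

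The counts in gene lists that follow can be read against 6.79% higher and 5.76% lower among all tested genes at an unadjusted p under 0.05, and 3.32% and 3.61% with the share. These shares went with abundance: 1.97% were higher and 15.4% lower in the top quintile, and 10.2% and 1.64% in the bottom one. Genes of projection neurons lay mostly below 0, and so did interneuron genes. Of 13 tested interneuron genes, 12 lay below 0, with a median log2 fold change of -0.26 (-0.10 with the share, with 9 below 0). The interneuron gene Sst was at -0.39 ± 0.11 (adjusted p = 0.14998), and at -0.22 ± 0.10 with the share. Of 8 tested genes of the indirect pathway, 6 lay below 0, with a median log2 fold change of -0.25 (-0.18 with the share). At an unadjusted p under 0.05, 3 were lower: Penk, Adora2a and Drd2 (2 with the share, Penk and Adora2a). The dopamine receptor gene Drd2 measured 49.6, 84.0 and 96.9 CPM in YAC128 aCSF and 66.7, 92.1 and 174 CPM in WT aCSF mice, with wide overlap (log2 difference -0.41 ± 0.19, adjusted p = 0.372). Of 10 genes of the direct pathway, 7 lay below 0, with a median of -0.14 (-0.15 with the share). At that threshold 2 were lower (20%), Ppp1r1a and Tac1, and 0 with the share. Ppp1r1a was at -0.35 ± 0.13 (adjusted p = 0.241), and at -0.16 ± 0.11 with the share. Tac1, the substance P precursor, was at -0.35 ± 0.14 (adjusted p = 0.326), Pdyn, the dynorphin precursor, at -0.27 ± 0.15, and the dopamine receptor gene Drd1 at -0.16 ± 0.17. Drd1 turned to 0.02 when the share was used in the 16 aCSF libraries alone. Whether indirect pathway genes differed more than direct pathway genes was not tested.

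Of 28 tested genes common to both kinds of projection neuron, 24 lay below 0 (26 with the share), with a median of -0.23 and -0.21 with the share, and none was called. Their mean level was 7.62 log2 CPM in YAC128 aCSF and 7.82 in WT aCSF mice, and abundant genes leaned the same way. In the top abundance quintile 1647 of 2136 genes lay below 0, with a median of -0.10 (-0.05 with the share). At an unadjusted p under 0.05, 7 of the 28 were lower (25%, against 15.4% of that quintile) and 0 higher. With the share 3 were lower (10.7%, against 6.46% of that quintile) and 1 higher. The higher gene was Cnr1, at 0.47 with the share and 0.08 without it. Ppp1r1b, which encodes the dopamine signalling protein DARPP-32, measured 442, 904 and 1067 CPM in YAC128 aCSF and 776, 1139 and 1860 CPM in WT aCSF mice (log2 difference -0.50 ± 0.19, adjusted p = 0.289). Hpca, a neuronal calcium sensor, was at -0.38 ± 0.16, and Adcy5, the main striatal adenylyl cyclase, at -0.34 ± 0.14. Pde10a, the striatal phosphodiesterase, had a value of 0.12 ± 0.23, and -0.20 ± 0.22 with the share. The median of this list was -0.40 in mice numbered from 18 and -0.07 in those numbered from 19. In YAC128 replicate 2 the mean log2 CPM of the list was the lowest of its group, 6.98 against a group median of 7.73.

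Genes of neighbouring tissue varied between single libraries. The thalamic markers Prkcd and Ramp3 reached 185 and 86.0 CPM in WT replicate 1, against at most 67.7 and 21.1 CPM in the other WT libraries. The cortical marker Slc17a7 ran from 8.22 to 321 CPM in YAC128 aCSF and from 21.6 to 300 CPM in WT aCSF libraries. Of 17 tested cortical genes, 14 lay below 0 (median -0.14), and 6 did with the share (median 0.07). Of 11 thalamic and hypothalamic genes, 7 lay below 0 (median -0.25, and 0.06 without WT replicate 1). With the share 8 lay below 0 (median -0.30). At an unadjusted p under 0.05, 1 of the 11 was lower, and 4 with the share (36.4%, against 3.61% of all genes). All 4 tested choroid plexus genes lay above 0 (median 0.64, and 0.39 without YAC128 replicate 4). With the cortical and choroid plexus scores as covariates, 7 genes were called, 6 of them among the 8. The part of dissection in the other differences was not tested.

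Astrocyte genes lay mostly below 0. Of 27 tested genes of homeostatic astrocytes, 23 lay below 0, with a median of -0.15 without and -0.15 with the share. Their mean level was high, at 7.83 log2 CPM in YAC128 aCSF and 7.99 in WT aCSF mice. At an unadjusted p under 0.05, 10 were lower (37.0%, against 5.76% of all genes and 15.4% of the top abundance quintile) and 0 higher. With the share 7 were lower (25.9%, against 3.61% of all genes and 6.46% of that quintile). Slc1a2 and Aldoc above belong to them, and none was called. Of 7 tested genes of reactive astrocytes the median was 0.06, and 0.21 with the share. Vim, an intermediate filament gene, was at 0.36 ± 0.14 (adjusted p = 0.277), and Gfap at -0.16 ± 0.19, or 0.01 ± 0.21 with the share. Microglial genes had medians of -0.08 (14 homeostatic genes) and -0.10 (12 activation genes), which turned to 0.0023 and 0.02 with the share. The microglial marker Aif1 was at 0.18 ± 0.21.

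Of 26 genes of myelinating oligodendrocytes, 17 lay below 0, with a median of -0.08 (-0.12 with the share). At an unadjusted p under 0.05, 8 were lower and 2 higher, and 8 lower and 1 higher with the share. Mobp, which encodes a structural protein of compact myelin, measured 305, 453 and 537 CPM in YAC128 aCSF and 491, 648 and 729 CPM in WT aCSF mice (log2 difference -0.45 ± 0.12, adjusted p = 0.14998). Mbp was at -0.20 ± 0.11 and Qdpr, a pteridine reductase gene, at -0.33 ± 0.09, whereas Myrf, the transcription factor of myelin genes, was at 0.32 ± 0.17. Oligodendrocyte precursor genes had a median of 0.04 (11 tested), and -0.04 with the share.

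Interferon-responsive genes lay mostly above 0, with nearly equal medians without and with the share. Of 25 on the list, 11 passed the filter on low counts, 10 of which lay above 0, with a median of 0.32, and 0.34 with the share. Their mean level was low, at 4.96 log2 CPM in YAC128 aCSF and 4.63 in WT aCSF mice, and genes of low abundance leaned upward. In the abundance quintile from 18.5 to 31.0 CPM, 1263 of 2136 genes lay above 0, with a median of 0.06 (0.03 with the share). At an unadjusted p under 0.05, 3 were higher and 0 lower, and 4 and 0 with the share. Ifitm3, a membrane protein that restricts viruses, measured 36.9, 47.8 and 56.5 CPM in YAC128 aCSF and 15.3, 33.2 and 47.8 CPM in WT aCSF mice (log2 difference 0.60 ± 0.15, adjusted p = 0.117). WT replicate 3 alone, at 47.8 CPM, reached into the YAC128 range, and the other WT libraries lay below every YAC128 library. Ifi27, another interferon-induced gene, was at 0.36 ± 0.14. The median was 0.49 in mice numbered from 18 and 0.26 in those numbered from 19.

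Energy and protein turnover genes lay slightly below 0, less so with the share in the model. Of 70 tested oxidative phosphorylation genes, 64 lay below 0 (median -0.14) and 17 were lower at an unadjusted p under 0.05 (24.3%, against 5.76% of all genes and 15.4% of the top abundance quintile). In that quintile 1647 of 2136 genes lay below 0. With the share 52 of the 70 lay below 0 (median -0.05) and 3 were lower (4.29%, against 3.61% of all genes), which is near the background. Cox4i1, a cytochrome oxidase subunit, was at -0.25 ± 0.08, and at -0.18 ± 0.08 with the share. Glycolysis genes (20 tested, 19 below 0) had medians of -0.15 and -0.04 without and with the share, synaptic vesicle genes (28 tested, 25 below 0) -0.15 and -0.06, proteasome genes (31 tested, 27 below 0) -0.11 and -0.08, and ribosomal protein genes (54 tested, 43 below 0) -0.10 and -0.03. Ribosomal protein genes have many pseudogene copies, so their counts are uncertain.

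Glucocorticoid-responsive genes, to which Sgk1 belongs, had 11 of 14 tested members below 0, a median of -0.16 (-0.09 with the share), and 5 lower and 1 higher at an unadjusted p under 0.05 (3 and 1 with the share). The metallothionein gene Mt1 was at -0.31 ± 0.11 and the transcription factor gene Klf9 at -0.27 ± 0.10. Of 27 heat-shock genes, 13 lay above and 14 below 0, with a median of -0.04, and with the share 17 lay above and 10 below, with a median of 0.05. At an unadjusted p under 0.05, 5 were higher (18.5%, against 6.79% of all genes) and 0 lower, and 4 and 0 with the share. The inducible pair Hspa1a and Hspa1b, near-identical copies that share reads, were at 1.49 ± 0.46 and 1.43 ± 0.48. Hspa1a reached 253 CPM in YAC128 replicate 2, against 22.5 to 103 CPM in the other YAC128 and 10.5 to 49.3 CPM in the WT libraries.

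**Figure D5:**
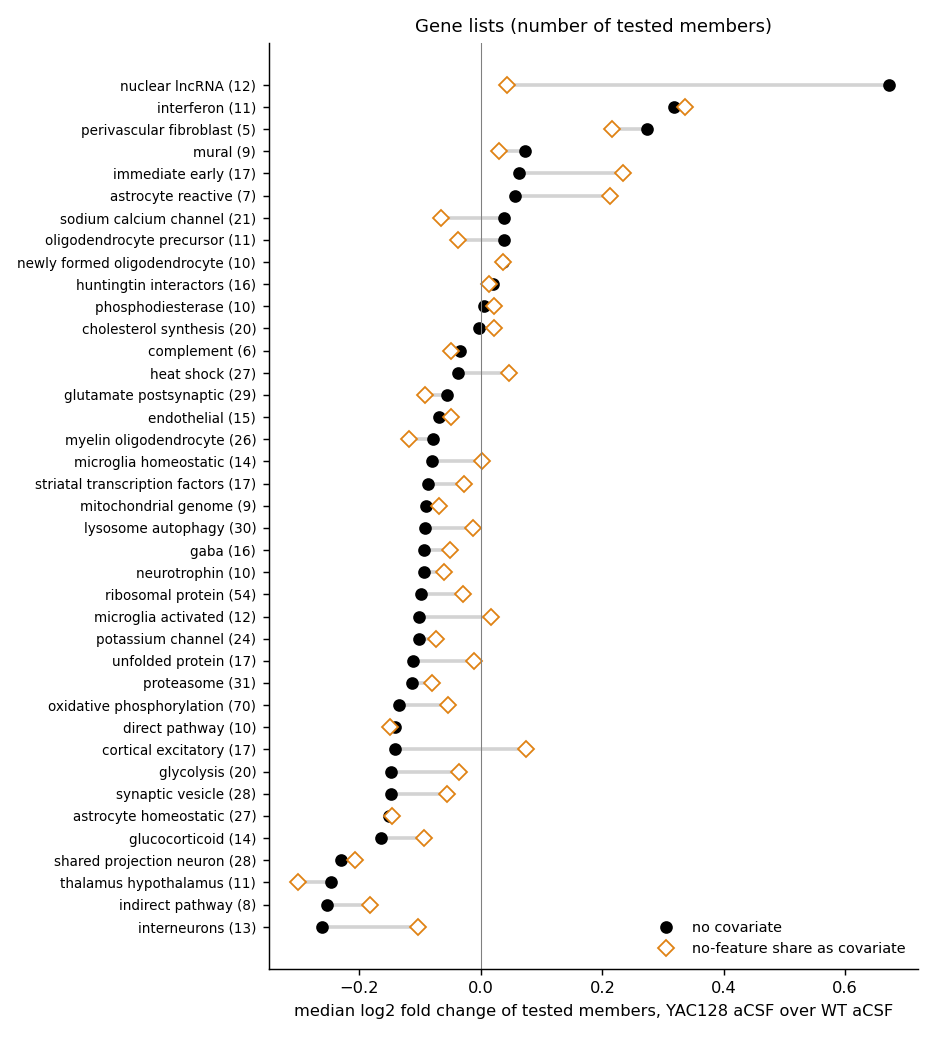
Median log2 fold change of YAC128 aCSF over WT aCSF among the tested members of each gene list with at least 5 of them (number in brackets), without a covariate (black) and with the no-feature share (open diamonds). Nuclear long RNAs have a median of 0.67 without and 0.04 with the share. The 2 medians are closer together for interferon, indirect pathway, shared projection neuron and homeostatic astrocyte genes. The same holds for many other lists, such as direct pathway (-0.14 and -0.15) and proteasome genes (-0.11 and -0.08).

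The animal numbers in the titles start with 18 or 19, and what this marks is not stated. There were 4 YAC128 aCSF and 3 WT aCSF mice numbered from 18, and 4 and 5 numbered from 19. No gene differed in its genotype effect between the number series at an adjusted p under 0.05 (0 of 10679, edgeR), and 447 did at an unadjusted p under 0.05 (4.19%, and 4.25% with the share in the model). Within mice numbered from 18, 9.17% of genes differed by genotype at that threshold (5.61% with the share), and within those numbered from 19, 6.15% (5.1% with the share). The log2 fold changes had the same sign in both series in 59.2% of all genes, and r across genes was 0.29 (0.19 with the share). Adora2a was at -0.83 in mice numbered from 18 and -0.85 in those numbered from 19, Anxa5 at 0.53 and 0.55, Enpp6 at 1.01 and 1.05, and Spata5 at 1.66 and 1.46. Penk was at -0.97 and -0.58, Il33 at -0.57 and -0.96, and Sgk1 at -0.58 and -0.82, with SEs of 0.20 to 0.25. At an unadjusted p under 0.01 in both series stood 10 genes, namely NM_001388492, Spata5, Enpp6, Anxa5, Adora2a, Dennd4a, Zfp445, Scrt1, Htra1 and the cystatin C gene Cst3 (-0.40 and -0.33).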

How the data were processed

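Striatal RNA was profiled as oligo-dT primed libraries by a modified mcSCRB-seq method, per the labels' protocols, so counts come mainly from the 3' part of polyadenylated transcripts. The authors deposited whole-number counts per feature, not normalized, 1 file per library with 5 summary lines, which stayed out of library sizes and tests. Per the submitters' processing notes STAR 2.7.5a, HTSeq 0.12.4, cutadapt 2.10 and FastQC were used, with GRCm39. Collapsing of molecular identifiers and use of strand are not given in the sources used here, so overlapping genes cannot be told apart. Names, chromosomes, classes and lengths came from a GRCm38 annotation by Ensembl identifier (52133 features, 99.8% of counts), and no coordinates are given.

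Counts were fitted in R 4.3.3 with edgeR 4.0.16: filterByExpr (minimum count 10, total 15), TMM, 1 coefficient per group over 32 libraries, quasi-likelihood test, Benjamini-Hochberg adjustment, called under 0.05. Levels are TMM-normalized CPM. The no-feature share is counts outside features over the file's sum. Alternatives included limma 3.58.1 (voom) and DESeq2 1.42.0. The script was tested on simulated data.

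Named were the 12 genes of smallest p each way, 6 each way with the share as covariate, up to 3 members of each of 43 lists, up to 3 features outside the filter, and fixed reference genes, predicted and sex-linked genes left out of the first groups. Not every gene the rule takes is printed. The comparison, lists and rule were chosen with earlier results of these data known.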

Additional observations from a re-analysis of the deposited data

Results flagged for a closer look

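Among 162 groups of 8 values examined (each named gene, the no-feature share, gene counts and the summed TEC level, per genotype), 18 had a highest or lowest library separated from the nearest other by more than 0.526 of the group's range. Chance gives about 1 in 20 groups. No explanation was tested.

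WT aCSF replicate 1 gave 8 of them. Its no-feature share was 30.2% and its summed TEC level 2367 CPM. It was also the highest of its group for Htt (129.5 CPM), Zfp445 (81.2 CPM), Scrt1 (114 CPM), Rian (131 CPM), Ramp3 (86.0 CPM) and Prkcd (185 CPM). WT aCSF replicate 3 was the lowest for Qdpr (298 CPM).

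YAC128 aCSF replicate 2 was the highest of its group for the heat-shock genes Hspa1a (253 CPM), Hspa1b (224 CPM) and Dnajb1 (234 CPM) and for Slc17a6 (67.5 CPM) and Ramp3 (19.5 CPM), and the lowest for Mbp (1624 CPM). YAC128 aCSF replicate 4 was the highest for the choroid plexus genes Ttr (3191 CPM) and Enpp2 (596 CPM). YAC128 aCSF replicate 3 was the highest for Pde10a (330 CPM).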

How the results depend on the processing

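No paired analysis was possible because the labels give no replicate numbers shared between genotypes, only a separate number for each animal. The count of called genes was 8. It was 4 with the no-feature share, 3 with the share in the 16 aCSF libraries alone and 1 in libraries with a share up to 25%. It was 2 in mice numbered from 18, 2 in mice numbered from 19 and 4 with upper quartile normalization (all higher). Without a filter it was 21, and with DESeq2 65 (3 higher and 62 lower). DESeq2 was run on 25434 features but left a part of them without an adjusted p. Its count and its directions are therefore not like for like with the 8. Of the 8, only Penk had an adjusted p in DESeq2 (0.00140), so the other called genes were neither kept nor rejected by it. Leaving out 1 library gave 3 to 142, the extremes being 142 without WT aCSF replicate 1 (114 higher), 27 without YAC128 aCSF replicate 8, and 3 without WT aCSF replicate 2, WT aCSF replicate 6 or YAC128 aCSF replicate 6. It was 4 without YAC128 aCSF replicate 2, 5 or 7 or WT aCSF replicate 3, and 5 without WT aCSF replicate 8. Chosen after seeing the data, the share without WT aCSF replicate 1 gave 2, leaving out WT aCSF replicate 1 and YAC128 aCSF replicate 4 gave 45, and the number of features with a count as covariate gave 3. Genes at an unadjusted p under 0.05 numbered 1340, and 741 with the share, 624 with the share in 16 libraries, 611 up to 25%, 692 in mice numbered from 19, 2314 without a filter, 671 with the share without WT aCSF replicate 1, 593 with the features covariate and 1068 to 1602 with 1 library left out. Upper quartile normalization made 873 of 1266 higher, against 725 of 1340. Other settings stayed within 1.5 times both counts. Of the called genes, Penk stayed called in 4 of 16 such omissions, Adora2a in 5, Sgk1 and Anxa5 in 6 and Il33 in 8. The difference in share was 7.06 points in mice numbered from 18 (exact p = 0.143) and 4.20 in those numbered from 19 (exact p = 0.0952), and 5.34 to 7.64 with 1 library left out.

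Over 78 named genes and 33 settings, 25 values changed sign, none of a called gene. With the share these were Pde10a (-0.20), Gfap (0.0083), Prkcd (-0.16) and Slc17a7 (0.32). With the share in 16 libraries they were Drd1 (0.021), Pde10a (-0.18), Prkcd (-0.33) and Slc17a7 (0.47). Up to 25% they were Pde10a (-0.12), Ttr (-0.46) and Slc17a7 (0.43). With tissue scores they were Pde10a (-0.023) and Ttr (-0.094). In mice numbered from 18 they were Gfap (0.40), Slc17a6 (0.25) and Prkcd (-0.78), and from 19 Slc17a7 (0.16). With the share without WT aCSF replicate 1 they were Pde10a (-0.20), Pvalb (0.12) and Slc17a7 (0.68), and with the features covariate Pde10a (-0.10), Prkcd (-0.18) and Slc17a7 (0.68). With 1 library left out Pde10a ran from -0.051 (without YAC128 aCSF replicate 3) to 0.21 and Prkcd from -0.060 (without YAC128 aCSF replicate 5) to 0.61. The causes were not tested.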

Other observations

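Features outside the filter on low counts, 44736 in number with 2.09% of all counts, were read as presence or absence by library. Of these features, 12831 had any count in the 16 libraries. In 32 a count occurred in at least 6 more YAC128 aCSF than WT aCSF libraries, and in 0 the other way. Presence depends on depth, and gene counts averaged 1005392 in YAC128 aCSF and 893248 in WT aCSF libraries. Gm37255, a TEC feature, had a count in 8 YAC128 aCSF libraries and 1 WT aCSF library (37 against 8 counts in all). Draxin, which encodes an axon guidance protein, had a count in 7 and 0 libraries (9 against 0 counts), and Gm44800, another TEC feature, in 7 and 0 (8 against 0 counts). YAC128 aCSF libraries held 17092 features with a count on average and WT aCSF libraries 16233 (two-sided exact p = 0.0107 by permutation, or 0.0522 adjusted over 6 library measures), and the part of this difference and of the no-feature share in these counts was not tested.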
